A study of Mus musculus with 14 samples.

Results

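The 31 genes described here make the enzymes that remove superoxide and peroxides, the transcription factor NRF2 with its inhibitor and several of its target genes, and 4 subunits of NADPH oxidases, which produce superoxide or hydrogen peroxide. They were taken by gene symbol, and all 31 were found in both deposited count tables, of 19660 genes in the liver table and 20203 in the kidney table. RNA came from liver and kidney of adult male mice of 12 weeks with the genotype Hap -6A, that is, mice with a human angiotensinogen transgene of that haplotype. Mice were fed normally or given a high salt diet (HSD), and the comparison asks how salt alters expression in these organs. The groups were liver on the normal diet (4 libraries), liver on high salt (4 libraries), kidney on the normal diet (3 libraries) and kidney on high salt (3 libraries). Every mouse carried the transgene, so whether a diet difference depends on the genotype cannot be told here. The salt content, the duration of feeding and the number of transgenic lines are not given in the sources used here. The labels do not tie libraries to animals, so p-values measure the spread between these libraries, which may be technical.

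Superoxide dismutases convert superoxide to hydrogen peroxide. Catalase, glutathione peroxidases and peroxiredoxins remove the peroxide, and these last families draw their electrons from glutathione and thioredoxin, which reductases restore with NADPH. NRF2, the product of Nfe2l2, is kept low by Keap1, which marks it for degradation. When released it binds antioxidant response elements and raises genes of glutathione and thioredoxin supply. The liver is rich in catalase and in cytosolic glutathione peroxidase, whereas the kidney tubule makes the glutathione peroxidase of blood plasma and the constitutively active oxidase Nox4.

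Liver libraries held 37267778 to 51487382 gene counts and kidney libraries 16046094 to 22004927. Levels are given as CPM, gene counts per 1000000 library counts with TMM-scaled library sizes, and standard errors (SE) of log2 fold changes come from edgeR. Several libraries stood apart in ways that the diet does not define. Mitochondrial transcripts took 2.30% and 2.06% of the counts in liver normal diet libraries 1 and 2, against 11.3% to 29.6% in the other 6 liver libraries, and 23.5% to 41.2% in kidney. The balance of short and long transcripts also varied. It was measured as the median log2 deviation from the tissue's mean over genes with transcripts under 1 kb, minus the same over genes of 4 kb or more. This balance was 0.54 and 0.55 in liver normal diet libraries 1 and 2, -0.14 and -0.0035 in normal diet libraries 3 and 4, and -0.35 to -0.018 in the high salt livers. In kidney it was -0.73, 0.30 and 0.39 on the normal diet and -0.25, 0.36 and -0.038 on high salt. The high salt liver libraries, called HS5 to HS8 after their columns, match no numbered title, and HS5 and HS6 were closer to each other (median absolute difference of 0.056 on the log2 scale) than any of the 11 other pairs of liver libraries of 1 diet (0.12 to 0.47).

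Defining markers fitted the tissue labels: hepatocyte markers summed to 53677 CPM or more in every liver library and to at most 117 CPM in kidney, and kidney tubule markers to 3484 CPM or more in kidney and at most 9.02 CPM in liver. Among markers of other cells in liver, those of red cells had lower means on high salt, with unadjusted p under 0.05 for 5 of the 5 tested and none past the adjusted threshold (summed 725 to 1937 CPM against 271 to 720 CPM). Macrophage and Kupffer cell markers summed to 193 to 429 CPM on the normal diet and 141 to 278 CPM on high salt, with 1 of 12 at unadjusted p under 0.05. Fibroblast and smooth muscle markers summed to 63.5 to 114.4 CPM and 130.3 to 146 CPM, with 4 of 8 at unadjusted p under 0.05, all higher on high salt. Of all genes tested in liver, 21.2% had an unadjusted p under 0.05. Neutrophil markers summed to 61.4 CPM in liver normal diet library 4 and to 1.47 to 3.00 CPM in the other 7 liver libraries. In kidney, neutrophil markers summed to 3.25 to 18.8 CPM on the normal diet and 1.68 to 4.35 CPM on high salt. Of the 3 tested there, 2 had an unadjusted p under 0.05, beside 2.01% of all genes. The part of these cells in the results was not tested, and in bulk RNA fewer cells of a type cannot be told apart from less RNA per cell.

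**Figure D1:**
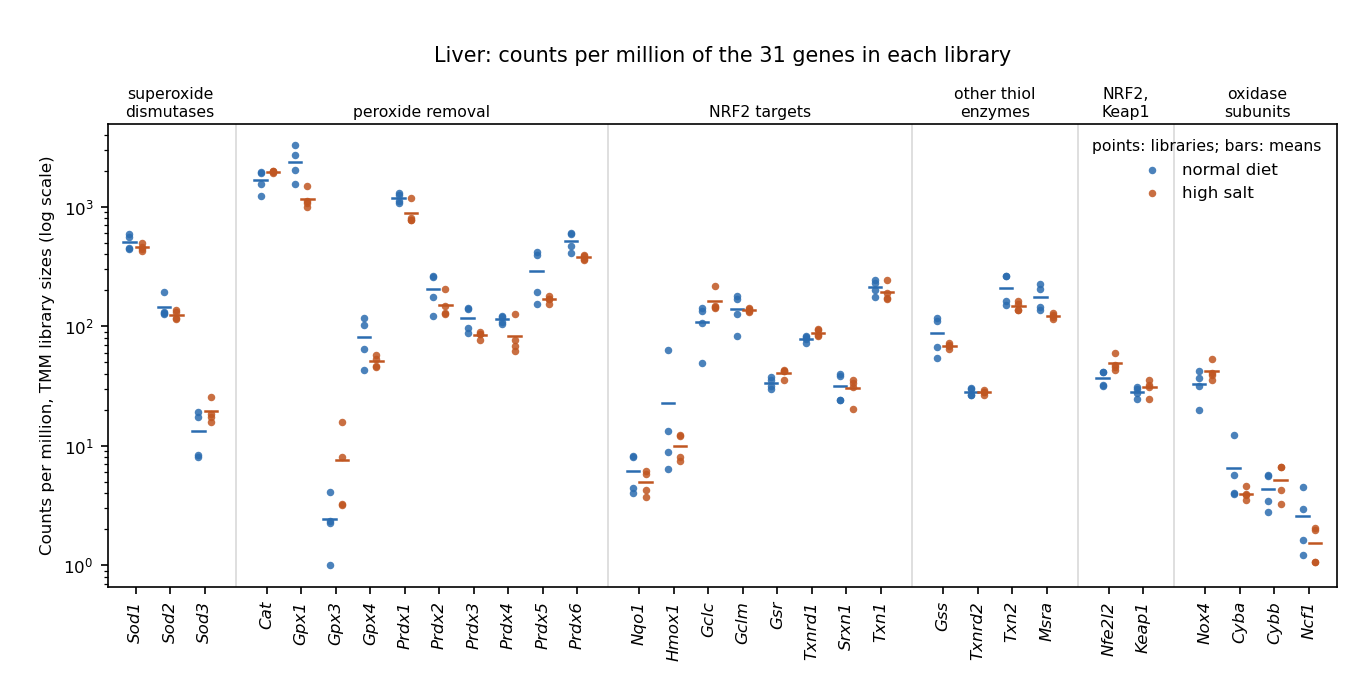
CPM (log axis) of each gene in the 4 normal diet and 4 high salt liver libraries, by role, with group means as bars. Gpx1 lies between 1546 and 3279 CPM on the normal diet and between 1005 and 1490 CPM on high salt, while the NRF2 targets overlap between the diets except for Gclc.

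In liver, none of the 31 genes passed the diet comparison (edgeR quasi-likelihood test, Benjamini-Hochberg adjusted p under 0.05, which 152 of 15130 genes or 1% passed). The genes with the lowest unadjusted p-values were mostly enzymes of peroxide removal with less RNA on high salt, led by Gpx1, and the NRF2 targets were split between directions. At an unadjusted p under 0.05 there were 9 of 31 genes (29.0%), beside 21.2% of all genes: Gpx1, Gpx4, Prdx3, Prdx5, Prdx6, Txn2 and Msra with lower means on high salt, and Gpx3 and Nfe2l2 with higher ones. That number was 3 without library HS5 (2042 of 15257 genes), 4 without HS6 (2024 of 15413), 3 without HS8 (2250 of 15188) and 3 without normal diet library 1 (2185 of 15460). It was 7 without normal diet library 2 (2269 of 15490), 9 without library 4 (4356 of 15270) and 9 without HS7 (3486 of 15295). Without normal diet library 3 it was 12 (4481 of 15471), and with DESeq2 11 (3537 of 15130). DESeq2, an alternative test, called Gpx1 and Gpx3 (2 of 31, or 6.45%, where it called 7.42% of all genes), and limma on the deposited normalized values called none. The 4 libraries of one diet did not overlap the 4 of the other for 5 of 31 genes (16.1%), beside 12.5% of all genes. Gpx1, Prdx6 and Msra were lower on high salt in this sense (6.05% of all genes were) and Gclc and Nfe2l2 higher (6.44% of all genes were). Both shares lie near the background of the whole table.

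Gpx1, the cytosolic glutathione peroxidase and per kilobase the most abundant of the 31 transcripts in liver, is encoded at chr9:108338903-108340343 (GRCm38, as are all positions here). Normal diet libraries 1 to 4 held 3279, 2713, 1546 and 2037 CPM, and HS5 to HS8 held 1005, 1121, 1490 and 1069.6 CPM. The groups did not overlap, though normal diet library 3 and HS7 lay close together. The log2 fold change was -1.03 ± 0.27 (SE, 4 libraries per diet; edgeR adjusted p = 0.098). It ranged from -1.20 to -0.85 when each library was left out, with adjusted p from 0.04 (without normal diet library 3) to 0.30. The DESeq2 adjusted p was 0.004. Without normal diet libraries 1 and 2 the log2 fold change was -0.61 ± 0.23 (edgeR adjusted p = 0.26).

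Gpx3, the secreted plasma glutathione peroxidase (chr11:54902453-54910377), was the only peroxide-removing gene at unadjusted p under 0.05 with a higher mean on high salt, at a very low level. The normal diet livers held 0.999, 2.34, 4.15 and 2.26 CPM and the high salt livers 3.27, 3.19, 15.8 and 8.05 CPM, so that the difference rested on HS7 and HS8. Its log2 fold change was 1.64 ± 0.57 (edgeR adjusted p = 0.16; DESeq2 0.041) and 0.41 ± 0.49 (adjusted p = 0.69) without those libraries. HS7 and HS8 were also the liver libraries with the most kidney tubule marker RNA. Summed over the 6 such markers present in the liver table, normal diet livers held 0.547, 0.899, 1.86 and 0.649 CPM and the high salt livers 1.30, 1.66, 9.02 and 4.66 CPM. Slc34a1, a phosphate transporter of the proximal tubule, stood at 4.12 CPM in HS7 and 2.00 CPM in HS8 and at no more than 0.409 CPM in the others. Set against the mean kidney level on the normal diet, Gpx3 was at 0.237% in HS7 and 0.121% in HS8, where the tubule marker sum was at 0.220% and 0.113%. Single markers spread more widely around that sum. In HS7 and HS8, Slc34a1 was at 0.482% and 0.234%, and Umod, another tubule marker, at 0.104% and 0.0351%. In the other 6 liver libraries Gpx3 was at 0.015% to 0.0625% and the marker sum at 0.0133% to 0.0452%. The part of kidney RNA in the Gpx3 values was not tested.

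Most peroxiredoxins reduce peroxides with thioredoxin, and the members of the family sit in different compartments. Prdx6, the member with a single catalytic cysteine (chr1:161240112-161251219), held 602, 597, 469 and 415 CPM in the normal diet livers and 392, 389.6, 367 and 362 CPM in the high salt livers. Every high salt library lay under every normal diet library, at -0.46 ± 0.18 on the log2 scale (edgeR adjusted p = 0.19). Mitochondrial Prdx3 held 141, 142, 97.5 and 88.6 CPM against 86.7, 86.9, 90.3 and 76.7 CPM (-0.46 ± 0.19, adjusted p = 0.20), and HS7 lay above normal diet library 4. Prdx5, found in mitochondria, peroxisomes and cytosol, held 416, 393, 154 and 193 CPM against 155, 170.5, 180.2 and 169 CPM (-0.78 ± 0.31, adjusted p = 0.20). Prdx5 was highest in normal diet libraries 1 and 2, and without both the log2 fold change was -0.04 ± 0.16. The cytosolic Prdx1 and Prdx2 and the endoplasmic reticulum enzyme Prdx4 had log2 fold changes of -0.43 ± 0.21, -0.43 ± 0.27 and -0.45 ± 0.22. Catalase (Cat), the peroxisomal enzyme, was close to even on high salt, with 1998, 1997, 1949 and 1914 CPM, and more scattered on the normal diet, with 1933, 1968, 1561 and 1225 CPM (0.23 ± 0.21, adjusted p = 0.54).

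Of the 10 peroxide-removing genes, 8 had lower means on high salt, with a median log2 fold change of -0.46, beside -0.02 over all genes. Many of these transcripts are short, and in liver the diet difference went with transcript length over all genes. Its median was -0.33 for genes under 1 kb, -0.22 for 1 to 2 kb, 0.0064 for 2 to 4 kb and 0.28 over 4 kb. With each library's trend with length removed as an offset, an alternative chosen after seeing the data, the median of the 10 genes was -0.16. That of all genes was 0.05, and 8 of the 10 were still lower. Gpx1 was then at -0.68 ± 0.18 (adjusted p = 0.11), Prdx6 at -0.33 ± 0.14 and Prdx5 at -0.41 ± 0.21. Without normal diet libraries 1 and 2, the median of the 10 was -0.10, with 7 lower. Over the 31 genes, 18 were lower with the length offset where 21 were without it, beside 6841 and 7872 of all 15130 genes. With the offset, 7 of the 31 had an unadjusted p under 0.05, as did 2728 of all 15130 genes. Those 7 were Sod2, Gpx1, Gpx3, Prdx6, Gsr, Msra and Nfe2l2. The part of transcript length in these differences was not tested beyond these values.

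**Figure D2:**
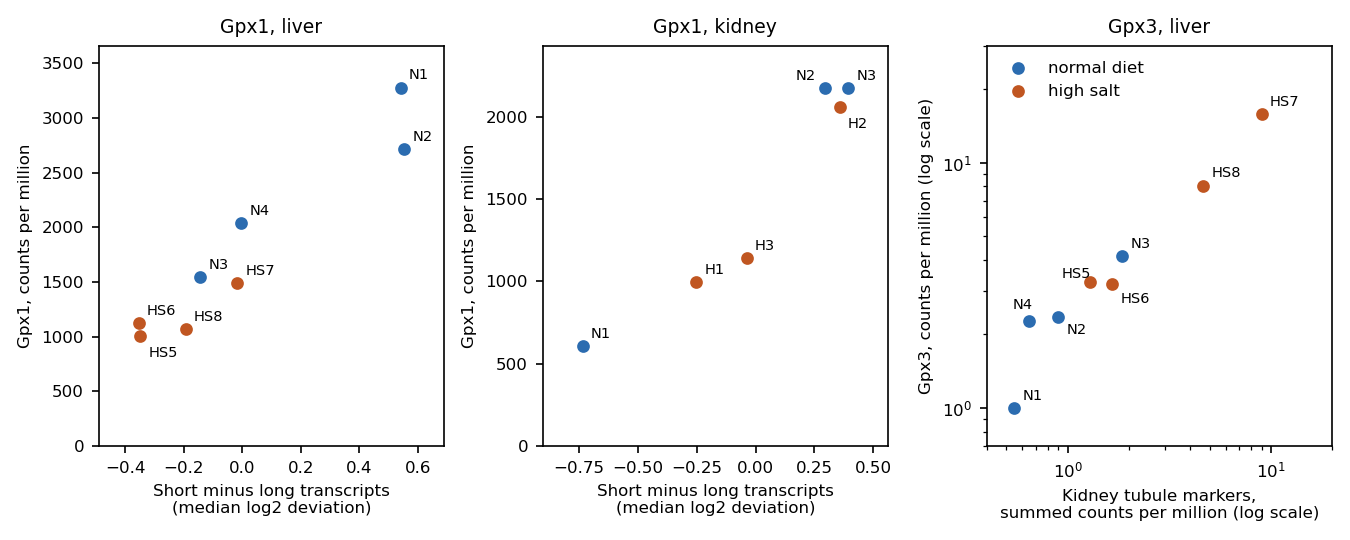
Left and middle: Gpx1 in CPM against the short minus long transcript balance (median log2 deviation) of each liver and kidney library; right: liver Gpx3 against summed kidney tubule markers (both in CPM, log axes). N and H with a number are normal diet and high salt libraries; Gpx1 is highest where short transcripts are, and Gpx3 is highest in HS7 and HS8, at 15.8 and 8.05 CPM.

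Gpx4, which reduces lipid peroxides in membranes (chr10:80047166-80056439), could not be read from its own row alone. A search of GENCODE transcripts found a near-identical copy, Gpx4-ps2, alike at 99.7% over 762 aligned bases, and the authors' quantification gave that copy 84.1% of the counts of the pair in liver and 89.2% in kidney. Gpx4 itself held 117, 104, 42.8 and 64.4 CPM in the normal diet livers and 45.7, 47, 58 and 53.4 CPM in the high salt livers (-0.69 ± 0.29, edgeR adjusted p = 0.21). Normal diet libraries 1, 2 and 4 lay above all high salt livers and library 3 below all of them, and without libraries 1 and 2 the log2 fold change was -0.07 ± 0.20. Gene and copy together came to 519 ± 193 CPM (SD, n = 4) with the normal diet and 318 ± 46.2 CPM (SD, n = 4) with high salt, or a log2 difference of -0.71 ± 0.27 (edgeR adjusted p = 0.19). Copies also held 27.3% of the counts of Sod1 and its copy Gm8566 in liver, 11.9% for Prdx1 with Gm21399, 5.28% for Prdx1 with Gm7204 and 1.10% for Txn1 with Txn-ps1. Levels of these 4 genes are therefore uncertain, and adding the copies changed none of their diet calls.

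NRF2 targets were mixed in liver. Of the 8, 3 had higher and 5 lower means on high salt, none at an unadjusted p under 0.05, with a median log2 fold change of -0.04. That split depended on the normal diet libraries: without libraries 1 and 2, 7 were higher and 1 lower, with a median of 0.26, and Gclc (1.07 ± 0.34, edgeR adjusted p = 0.20) and Hmox1 (-1.93 ± 0.50, 0.13) had an unadjusted p under 0.05, as did 2554 of 15885 genes. Gclc, the catalytic subunit of the enzyme that limits glutathione synthesis (chr9:77754535-77794485), held 135, 141, 106 and 49.5 CPM in the normal diet livers and 147, 142, 219.6 and 147 CPM in the high salt livers (0.60 ± 0.31, edgeR adjusted p = 0.29). The diets did not overlap, by a margin of under 1 CPM between normal diet library 2 and HS6, and normal diet library 4 was lowest. Hmox1, the enzyme that degrades heme, held 8.89, 6.35, 13.3 and 63.4 CPM against 12.2, 12.3, 7.42 and 8.09 CPM, so its log2 difference of -1.20 ± 0.65 (adjusted p = 0.31) rested on normal diet library 4. That library also held the most macrophage and Kupffer cell and neutrophil marker RNA, 429 and 61.4 CPM summed. Without it the Hmox1 difference was 0.06.

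The remaining NRF2 targets differed less. Glutathione reductase (Gsr) held 37.6, 29.7, 35.4 and 31.8 CPM against 43.4, 42.1, 42.5 and 35.6 CPM (0.28 ± 0.14), and cytosolic thioredoxin reductase (Txnrd1) had a log2 fold change of 0.17 ± 0.13. Nqo1, a quinone reductase often used as a readout of NRF2, was low in liver at 8.15, 8.09, 4.4 and 4.06 CPM against 5.86, 6.11, 4.26 and 3.76 CPM (-0.31 ± 0.29, adjusted p = 0.55), and its groups overlapped. Gclm, the modifier subunit of glutamate-cysteine ligase, held 181, 170.3, 125.7 and 83 CPM against 140.1, 136, 142 and 133 CPM (-0.02 ± 0.23), the smallest difference of the NRF2 targets. Sulfiredoxin (Srxn1), which repairs overoxidised peroxiredoxins, was at -0.06 ± 0.24 and thioredoxin 1 (Txn1) at -0.14 ± 0.18. Nfe2l2 itself (chr2:75675513-75704641) held 31.6, 41.8, 41.2 and 32.5 CPM in the normal diet livers and 47.7, 43.1, 46 and 59.4 CPM in the high salt livers. All high salt livers lay above all normal diet livers, at 0.41 ± 0.16 on the log2 scale (adjusted p = 0.19) and 0.52 ± 0.16 with the length offset (adjusted p = 0.14). Keap1 held 31.4, 27.7, 24.9 and 29.8 CPM against 31.3, 32.1, 24.8 and 35.3 CPM, with overlap (0.12 ± 0.15).

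Because the NRF2 targets are defined by a DNA element, the promoters of the 31 genes were searched for its core, TGACNNNGC, on both strands of RefSeq windows (GRCm38.p6) from 250 bases before to 50 bases after the annotated start. Windows were given for 25 of the 31 genes, and 6 of them (24%) held the core, beside 14% of 27025 genes with a window. Among the NRF2 targets it was found in 3 of the 5 with a window. The 6 matches, printed because they include NRF2's own gene and 3 of its targets, read 5′ to 3′ on the gene's strand and have the 9 matching bases in capitals and 10 bases to either side. In 5 of them the core reads on the opposite strand, as GCNNNGTCA.
Nfe2l2, chr2:75704885-75704913, minus strand: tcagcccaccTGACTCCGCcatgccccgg
Srxn1, chr2:152105542-152105570, plus strand: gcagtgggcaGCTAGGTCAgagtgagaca
Gclm, chr3:122245413-122245441, plus strand: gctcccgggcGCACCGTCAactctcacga
Txnrd1, chr10:82859104-82859132, plus strand: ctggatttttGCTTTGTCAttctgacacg
Prdx1, chr4:116685456-116685484, plus strand: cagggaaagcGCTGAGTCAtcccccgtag
Sod1, chr16:90220696-90220724, plus strand: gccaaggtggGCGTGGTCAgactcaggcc

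The Prdx1 match also holds TGANTCA, the AP-1 motif, which overlaps the core. In Srxn1 the match lies 29 bases past the annotated start of its window, in the others before it. A gene could have more than 1 window, as 32851 windows were searched for 27025 genes. The Txnrd1 window, chr10:82858956-82859255, lies inside the gene, which spans chr10:82833951-82897712. A match is a string of letters and not a bound site, and the genes with a match did not share a diet difference in liver: their log2 fold changes ran from -0.43 ± 0.21 for Prdx1 to 0.41 ± 0.16 for Nfe2l2.

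Other thiol enzymes had lower means on high salt in 4 of 4 genes in liver (median -0.43, and -0.15 with the length offset). Msra, which reduces oxidised methionine (chr14:64122625-64455903), held 224, 204, 145 and 136 CPM against 129.5, 125, 120.1 and 116 CPM, without overlap (-0.53 ± 0.19, edgeR adjusted p = 0.17), and was at -0.19 ± 0.14 without normal diet libraries 1 and 2. Mitochondrial thioredoxin (Txn2) held 262, 264, 161.5 and 149.7 CPM against 153, 161.7, 137 and 137 CPM (-0.51 ± 0.22, adjusted p = 0.22). As with Prdx5, normal diet libraries 1 and 2 stood high, and without both Txn2 was at -0.08 ± 0.15. Glutathione synthetase (Gss) was at -0.35 ± 0.24 and mitochondrial thioredoxin reductase (Txnrd2), at 26.4, 29.9, 26.6 and 30.5 CPM against 28.2, 29.3, 28.1 and 26.7 CPM, was nearly level (-0.01 ± 0.12). No superoxide dismutase reached an unadjusted p under 0.05 in liver. Cytosolic Sod1 held 591, 559, 453 and 443 CPM against 444, 428, 496 and 465 CPM (-0.16 ± 0.17), inside the normal diet range but for HS6, and mitochondrial Sod2 was at -0.22 ± 0.18. With the length offset the sign of Sod1 turned, to 0.21 ± 0.14, and Sod2 was at -0.48 ± 0.15 (adjusted p = 0.15). Sod3, the secreted form, held 8.35, 8.09, 19.3 and 17.6 CPM against 17.5, 16, 18.6 and 25.5 CPM (0.54 ± 0.31, adjusted p = 0.33); its lowest values were those of normal diet libraries 1 and 2.

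NADPH oxidase subunits were scarce in liver, and none of the 4 reached an unadjusted p under 0.05 with all libraries. Without normal diet libraries 1 and 2, 3 did: Nox4 (0.71 ± 0.25, edgeR adjusted p = 0.22), Cyba (-1.03 ± 0.37, 0.23) and Ncf1 (-1.28 ± 0.35, 0.15). In that fit 2554 of 15885 genes had an unadjusted p under 0.05, among them 7 of the genes described here. None of the 3 subunits passed the adjusted threshold. With all libraries, Nox4, the catalytic subunit that makes hydrogen peroxide without stimulation (chr7:87246096-87398710), held 37.1, 42.3, 31.9 and 19.8 CPM against 40.6, 39.2, 53.6 and 35.8 CPM (0.37 ± 0.23, adjusted p = 0.39). Cyba, the p22phox partner of several oxidases (chr8:122424776-122432930), held 5.66, 3.98, 4.03 and 12.3 CPM against 3.96, 4.6, 3.91 and 3.51 CPM (-0.70 ± 0.35), with normal diet library 4 highest. Of the phagocyte oxidase, the catalytic subunit Cybb held 2.81, 3.43, 5.6 and 5.72 CPM against 6.66, 6.67, 3.28 and 4.24 CPM (0.25 ± 0.31). The cytosolic organiser Ncf1, with 1.64, 1.23, 2.96 and 4.54 CPM against 2.06, 1.97, 1.06 and 1.06 CPM, was at -0.75 ± 0.43. Library 4 of the normal diet, which held the most neutrophil marker RNA (61.4 CPM summed), also had the highest Cyba and Ncf1. Without library 4 alone Cyba was at -0.20 and Ncf1 at -0.34, and the part of those cells was not tested.

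**Figure D3:**
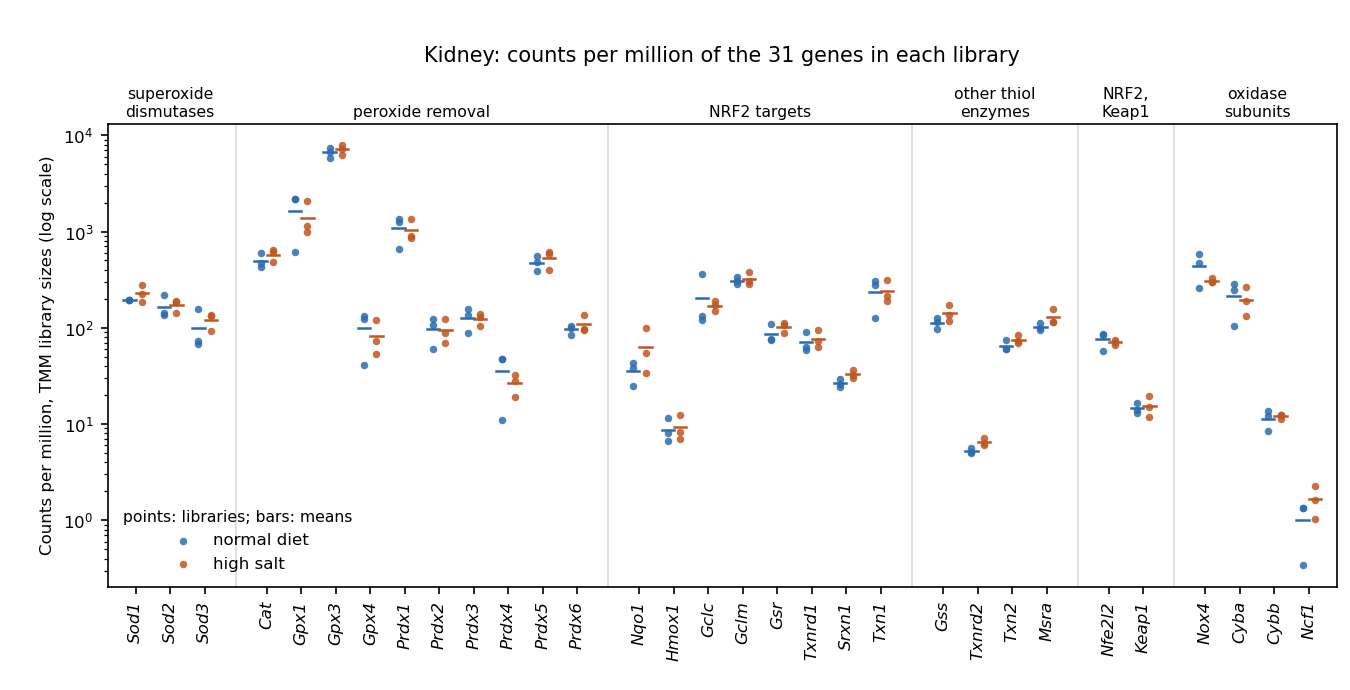
CPM (log axis) of each gene in the 3 normal diet and 3 high salt kidney libraries, by role, with group means as bars. Gpx3 lies between 5810.1 and 7883 CPM, above every other gene, and the diets overlap for 28 of the 31 genes.

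In kidney, none of the 31 genes passed the diet comparison (edgeR, 0% of 15847 genes called) and none had an unadjusted p under 0.05, beside 2.01% of all genes. DESeq2 and limma on the deposited values called none of the 31 either. Without normal diet library 1, the library with the lowest short minus long balance, 5 genes had an unadjusted p under 0.05 (Sod3, Prdx4, Gsr, Srxn1 and Nox4), with adjusted p no lower than 0.20, where 2627 of 16146 genes had one. Means were higher on high salt for 21 of 31 genes and lower for 10, with a median log2 fold change of 0.09, beside -0.02 over all genes. The diets did not overlap for 3 of 31 genes (9.68%), beside 6.92% of all genes: Srxn1, Txnrd2 and Msra, all higher on high salt.

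Among the NRF2 targets, 7 of 8 had higher means on high salt in kidney, with a median of 0.10. Nqo1 (chr8:107388225-107403206) had the largest difference of the 31 genes, with 25, 38.4 and 43.1 CPM in the normal diet kidneys and 34, 54.1 and 99.97 CPM in the high salt kidneys. High salt library 3 stood far above the rest, and library 1 lay inside the normal diet range. The log2 fold change was 0.82 ± 0.39 (edgeR adjusted p = 1.00), and 0.31 without high salt library 3. Its unadjusted p was under 0.05 with the length offset (0.78 ± 0.33) and without high salt library 1 (1.12), with adjusted p of 1.00 in each. Srxn1 held 29.3, 24.5 and 25.8 CPM against 30.2, 32.4 and 36.1 CPM (0.31 ± 0.18), a small gap with no overlap. Gclc had 365, 119 and 131 CPM against 148, 189 and 171 CPM (-0.28 ± 0.42), and was 0.44 without normal diet library 1. Txn1 had the smallest difference, with 126.2, 276 and 306 CPM against 189, 315 and 215 CPM (0.02 ± 0.36). Gclm, Gsr, Txnrd1, Txn1 and Hmox1 lay between 0.02 and 0.22 on the log2 scale. Nfe2l2 held 56.8, 86.3 and 84.7 CPM against 66.4, 70.9 and 75.1 CPM (-0.10 ± 0.22) and Keap1 16.5, 14 and 13.2 CPM against 15, 11.8 and 19.6 CPM (0.09 ± 0.23), both with overlap.

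Peroxide-removing genes were split in kidney, with 4 of 10 means higher and 6 lower on high salt and a median of -0.03. Gpx3 (chr11:54902453-54910377) held 6744, 7378 and 5810.1 CPM in the normal diet kidneys and 7236, 6292 and 7883 CPM in the high salt kidneys (0.10 ± 0.23). Gpx1 held 607, 2172 and 2174 CPM against 995, 2056 and 1139 CPM (-0.24 ± 0.50), low in library 1 of the normal diet and in libraries 1 and 3 of high salt, the same libraries whose short transcript balance was lowest. Prdx4 had the lowest log2 fold change of the group, with 11, 47.6 and 47.4 CPM against 19.1, 32.3 and 27.8 CPM (-0.42 ± 0.49), and was again lowest in normal diet library 1. Prdx3 had the smallest, with 88.8, 135 and 155 CPM against 104, 130.1 and 139 CPM (-0.02 ± 0.26). Catalase was at 0.21 ± 0.23, Prdx5 at 0.17 ± 0.25 and Prdx6 at 0.18 ± 0.22. With the length offset, Gpx1 was at -0.15 ± 0.34 and Prdx4 at -0.27 ± 0.33.

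Thiol enzymes had higher means on high salt in 4 of 4 genes in kidney (median 0.32). Msra held 111, 98.4 and 94.1 CPM against 114.02, 113 and 157 CPM (0.34 ± 0.21) and Txnrd2 5.15, 5.68 and 4.99 CPM against 6.39, 7.12 and 6.05 CPM (0.31 ± 0.20); neither overlapped between the diets. Gss was at 0.34 ± 0.22 and Txn2, with 74.9, 60.4 and 60.1 CPM against 72.7, 68.9 and 84.7 CPM, at 0.21 ± 0.20. The superoxide dismutases had small positive log2 fold changes, 0.24 ± 0.22 for Sod1, 0.07 ± 0.26 for Sod2 and 0.30 ± 0.35 for Sod3. Sod2 held 220.2, 142 and 135 CPM against 186.2, 143 and 191 CPM, and Sod3 155, 72.1 and 67.7 CPM against 136, 92.8 and 133 CPM, both with overlap. Nox4 had the lowest log2 fold change of the 31 in kidney, with 261, 586 and 476 CPM in the normal diet kidneys and 327, 296 and 299.8 CPM in the high salt kidneys (-0.52 ± 0.30, edgeR adjusted p = 1.00). The high salt kidneys lay close together, and normal diet library 1 lay under them while libraries 2 and 3 lay above. Without that library the log2 fold change of Nox4 was -0.79 (edgeR adjusted p = 0.20). Cyba held 104, 247 and 286 CPM against 131, 268 and 189 CPM (-0.12 ± 0.41), Cybb held 8.44, 13.5 and 12.1 CPM against 12.4, 11.3 and 12.5 CPM (0.09 ± 0.23), and Ncf1, at 1.35, 1.35 and 0.339 CPM against 1.03, 1.64 and 2.27 CPM, was at 0.71 ± 0.56.

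**Figure D4:**
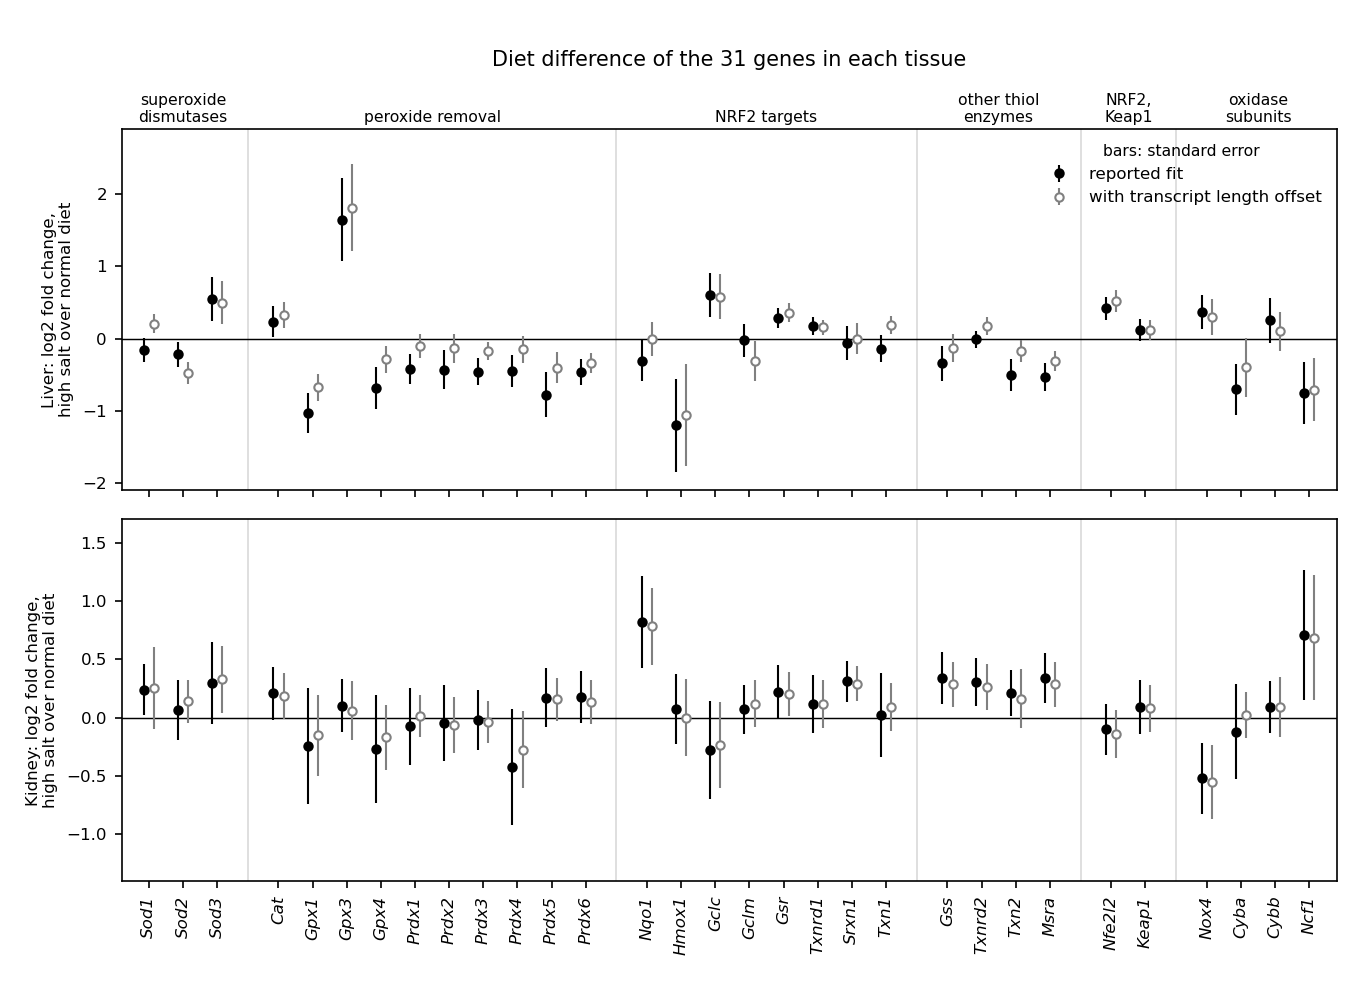
Log2 fold change of high salt over normal diet, with standard errors, for each gene in liver (top) and kidney (bottom). Black points are the reported fit and grey open points the fit with a transcript length offset; in liver most short peroxide-removing genes lie nearer to 0 with the offset, Gpx1 from -1.03 to -0.68.

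Whether the diet difference itself differed between the tissues was tested as an interaction over the 14 libraries and 16633 genes. None of the 31 genes passed (edgeR, 0% of all genes; DESeq2 called none of the 31), and 2 of 31 (6.45%) had an unadjusted p under 0.05, beside 10.1% of all genes. That number was 6 without liver normal diet library 3 (2596 of 16610 genes) or 4 (2289 of 16585), 0 without kidney high salt library 3 (1184 of 16969) and 7 with DESeq2 (1925 of 16633). With all libraries those were Msra, with liver minus kidney at -0.88 ± 0.32 (edgeR adjusted p = 0.39), and Nqo1, at -1.13 ± 0.52 (adjusted p = 0.48). For Nox4 the difference was 0.88 ± 0.42 (adjusted p = 0.50), from a higher mean on high salt in liver and a lower one in kidney. For Gpx1 it was -0.80 ± 0.62 (adjusted p = 0.67).

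The tissues differed far more than the diets. On the normal diet 22 of 31 genes (71.0%) passed the comparison of kidney with liver, where 65.1% of 16633 genes passed. Of the 31, 8 were higher in kidney (25.8%, beside 32.2% of all genes) and 14 lower (45.2%, beside 32.9%). CPM values in this comparison are on the library sizes of the joint fit. Tissue and deposited table cannot be told apart here. Both the length offset and upper quartile scaling, alternatives to the fit, moved the median log2 fold change of all genes, from -0.02 to 0.31 and 0.28, and the values below are not corrected for such a shift.

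Gpx3 showed the largest difference: liver libraries 1 to 4 held 1.23, 2.9, 4.78 and 2.56 CPM and kidney libraries 1 to 3 held 5485, 6007 and 4754 CPM, 10.89 ± 0.74 on the log2 scale (SE; edgeR adjusted p = 6.9e-09). Other peroxide-removing enzymes went the opposite way. Prdx6 was lower in kidney, with 740.1, 738, 539 and 469 CPM in liver and 84.8, 67.9 and 82 CPM in kidney (-2.99 ± 0.26, adjusted p = 9.1e-08). Catalase was lower in kidney as well, with 2377, 2433, 1797 and 1387 CPM in liver and 482, 387 and 351 CPM in kidney (-2.30 ± 0.30, adjusted p = 7.5e-06). Prdx4 held 150.4, 149, 121 and 124 CPM in liver and 8.98, 38.7 and 38.8 CPM in kidney (-2.24 ± 0.41, adjusted p = 0.00023). For these genes no kidney library reached any liver library. Prdx2 was lower in kidney too (-1.64 ± 0.35), and so was Gpx1 (-1.09 ± 0.45, edgeR adjusted p = 0.045). However, Gpx1 lost its call in 14 of 25 alternative runs. Among these were the length offset (-0.48 ± 0.31, adjusted p = 0.18) and upper quartile scaling (-0.76, 0.14). Others were the fits without kidney library 1 (-0.70, 0.14) and without liver library 1 (-0.88, 0.11) or 2 (-1.01, 0.082). Gpx4 did not pass on its own row (-0.29) or with its copy added (0.30). Prdx1, Prdx3 and Prdx5 did not pass either, though Prdx5 was called higher in kidney with the length offset (0.96 ± 0.22).

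**Figure D5:**
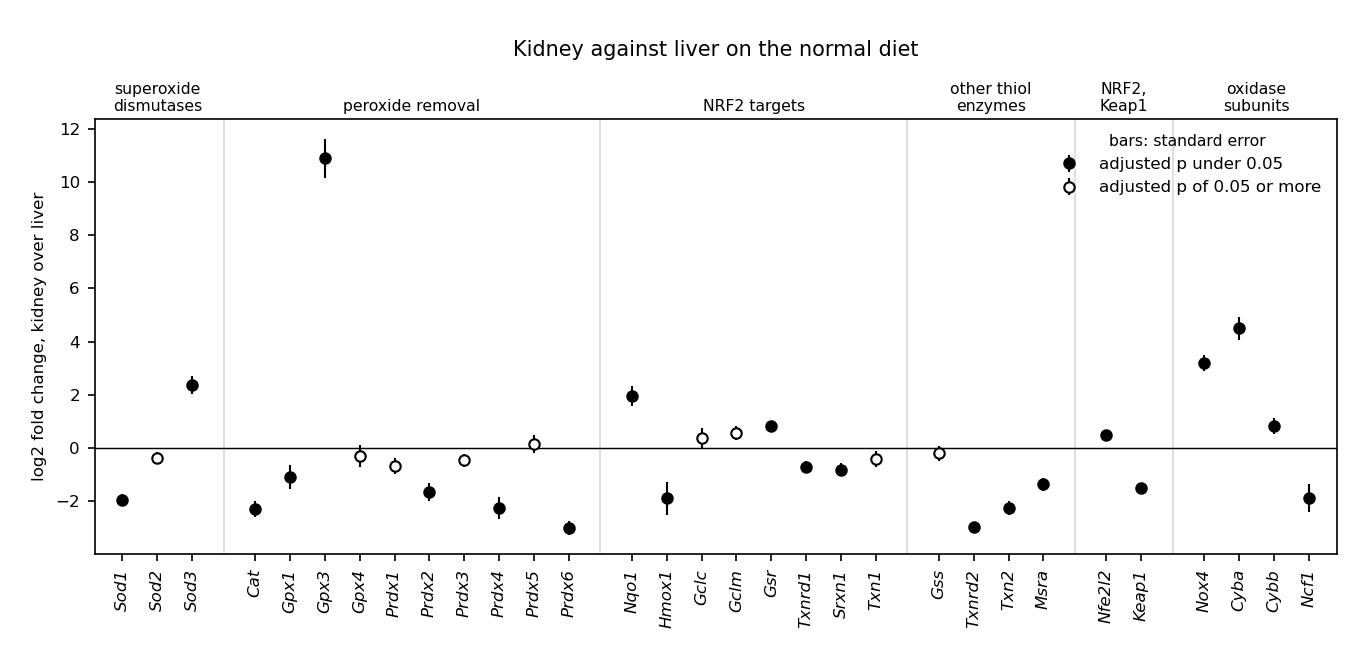
Log2 fold change of kidney over liver on the normal diet for each gene, with standard errors, by role; filled points passed the adjusted p threshold of 0.05. Gpx3 stands at 10.89, Cyba at 4.50 and Nox4 at 3.20, while the other called peroxide-removing and thiol enzymes lie under 0.

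Of the 4 oxidase subunits, 3 were higher in kidney. Cyba held 6.96, 4.92, 4.63 and 14 CPM in liver and 84.8, 201 and 234 CPM in kidney (4.50 ± 0.43, edgeR adjusted p = 2.7e-07). Nox4 held 45.6, 52.3, 36.7 and 22.4 CPM and 212, 477 and 389.7 CPM (3.20 ± 0.31, adjusted p = 3.3e-07). For both genes every kidney library lay above every liver library. Cybb was higher by 0.84 ± 0.29 but did not pass in 4 of 25 alternative runs. Among these were the fits without liver library 1 (0.69, adjusted p = 0.056), without kidney library 2 (0.69, 0.089) and without kidney library 3 (0.79, 0.056). Ncf1 was lower by a log2 fold change of -1.88 ± 0.53, from 2.02, 1.52, 3.4 and 5.14 CPM in liver to 1.1, 1.1 and 0.277 CPM in kidney, and lost its call in 1 of 24 runs. Sod3 held 10.3, 10, 22.2 and 19.9 CPM in liver and 126.4, 58.7 and 55.4 CPM in kidney (2.36 ± 0.34, adjusted p = 2.2e-05), while Sod1 was lower in kidney (-1.94 ± 0.23).

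NRF2 targets split between the tissues, 2 higher in kidney, 3 lower and 3 not called. Nqo1 held 10, 10, 5.07 and 4.6 CPM in liver and 20.3, 31.3 and 35.3 CPM in kidney (1.96 ± 0.37, edgeR adjusted p = 0.00025), and Gsr was higher in kidney as well (0.83 ± 0.18). Hmox1 (-1.89 ± 0.61), Txnrd1 (-0.70 ± 0.20) and Srxn1 (-0.81 ± 0.25) were lower, and all 3 lost the call with the length offset. Hmox1 also lost it without liver library 4, at -0.67 (adjusted p = 0.078), and without kidney library 3, at -1.71 (0.058). Txnrd1 also lost it without kidney library 3, at -0.60 (0.055). Over 25 alternative runs, Hmox1 and Txnrd1 each lost the call in 4, Srxn1 in 3 and Gsr in 1. Nfe2l2 was higher in kidney (0.50 ± 0.19, adjusted p = 0.033), and Keap1 was lower (-1.51 ± 0.20). Nfe2l2 lost its call in 7 of 25 alternative runs. Among these were the fits without liver library 1 or 4 or kidney library 2 or 3 (adjusted p from 0.075 to 0.14). Mitochondrial thiol enzymes were lower in kidney. Txnrd2 held 32.5, 36.9, 30.6 and 34.6 CPM in liver and 4.19, 4.62 and 4.08 CPM in kidney (-2.97 ± 0.16, adjusted p = 7.4e-10), and Txn2 321, 326, 185.9 and 169 CPM and 60.9, 49.2 and 49.2 CPM (-2.24 ± 0.26). Gss overlaps Acss2 and Cyba overlaps Galnt2l on the opposite strand, and whether the counting used strand is not given in the sources used here. Msra was lower in kidney by a log2 fold change of -1.36 ± 0.23.

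Divided by the length of the principal transcript, the levels of different genes can be set side by side. In the normal diet liver Gpx1 led the 31 genes with 2233 CPM per kb, followed by Prdx1 with 1356, Sod1 with 798 and Cat with 639.8 CPM per kb. In the normal diet kidney Gpx3 led with 4168 CPM per kb, followed by Gpx1 with 1540.4, Prdx1 with 1246 and Prdx5 with 376 CPM per kb. Gpx4 was ranked on its own row, without Gpx4-ps2. Gene and copy together held 939 CPM in the normal diet kidney, where Prdx5 held 475 CPM. The kidney order after Prdx1 therefore depends on how copies are counted. Within the glutathione peroxidases, on CPM per kb and without the Gpx4 copy, Gpx1 made up 96.3% ± 0.43 in liver (SD, n = 4), and in kidney Gpx3 made up 72.8% ± 13 and Gpx1 25.5% ± 12.2 (SD, n = 3). Prdx1 was the main peroxiredoxin in both tissues, at 64.0% ± 4.47 in liver and 66.7% ± 3.99 in kidney. Next came Prdx5 in kidney at 21.1% ± 3.62, while in liver Prdx5 (10.3% ± 3.40) and Prdx6 (10.2% ± 0.72) did not differ beyond their spread. Oxidase subunits ranked 25 or lower of 31 in the normal diet liver, whereas Cyba, at 286 CPM per kb, ranked 6 and Nox4, at 118 CPM per kb, ranked 9 in kidney, and Cybb and Ncf1 ranked 30 and 31 there.

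Beyond the 31, 76 further genes of the pathway were examined in the same fits. Of 28 further NRF2 targets tested in liver, 1 was called higher on high salt and 1 lower (7.14%, beside 1% of all genes), and no gene was called among 10 NRF2 regulators, 19 other peroxide and thiol enzymes and 8 other oxidant-producing genes. Me1, the cytosolic malic enzyme that supplies NADPH and also serves fatty acid synthesis, rose from 37.3, 63.4, 98.7 and 64.1 CPM to 401, 386, 213 and 275 CPM (2.28 ± 0.32, edgeR adjusted p = 0.017). All high salt livers lay far above the normal diet livers. Gstm2, a glutathione transferase, fell from 75.2, 57.2, 49.9 and 56.7 CPM to 26, 23.8, 22.9 and 40 CPM (-1.09 ± 0.21, adjusted p = 0.049), a call that did not hold with the length offset (adjusted p = 0.11). Me1 kept its direction and lost its call without HS5 (2.15, edgeR adjusted p = 0.073), without HS6 (2.17, 0.075) and with HS5 and HS6 summed (2.16, 0.074). The same held without normal diet library 2 (2.26, 0.052), without normal diet libraries 1 and 2 (1.97, 0.071) and without HS7 and HS8 (2.58, 0.071). Gstm2 likewise lost its call without HS5, HS6, HS7 or normal diet library 1 or 2 (-1.11 to -0.96, adjusted p from 0.072 to 0.21). It also lost the call with HS5 and HS6 summed (-1.03, 0.20), without normal diet libraries 1 and 2 (-0.92, 0.13) and without HS7 and HS8 (-1.26, 0.11). Upper quartile scaling (-1.05, 0.053), no filter (-1.095, 0.059) and at least 10 counts in every library (-1.06, 0.052) gave no call either. At an unadjusted p under 0.05, the liver lists held 7 higher and 5 lower of the 28 further targets (42.9%, beside 21.2% of all genes), 1 higher of the 10 regulators, 1 higher and 6 lower of the 19 peroxide and thiol enzymes (36.8%), and 1 lower of the 8 oxidant-producing genes. For the further targets that number was 8 with the length offset (2728 of 15130 genes) and 7 with HS5 and HS6 summed (2054 of 15397). With DESeq2 it was 12 (3537 of 15130). These lists were chosen with earlier results of these data known. In kidney no further gene was called, and at an unadjusted p under 0.05 there were 3 of 24 further targets (12.5%, beside 2.01% of all genes), all higher (Gstp2, Blvrb and Ftl1), and none in the other lists. For Me1 the tissue by diet interaction was 2.21 ± 0.42 (adjusted p = 0.097).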

How the data were processed

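Gene counts of 14 libraries (liver, 4 per diet; kidney, 3 per diet) were analysed. The expected counts per gene were estimated by the authors with Partek's expectation-maximisation quantification and deposited as one table per tissue, and were rounded here to whole numbers; normalized signal values, deposited by the authors beside them with a method not given in the sources used here, served only an alternative. Per the submitters' processing notes, Partek 7.0, STAR 2.5.3a and DESeq2 were used with mm10. Diet comparisons were fitted per tissue, and the interaction and tissue comparison over all 14 libraries and the 17600 shared genes, with edgeR 4.0.16 (TMM, filterByExpr, quasi-likelihood, Benjamini-Hochberg over all genes tested) in R 4.3.3; DESeq2 1.42.0 and limma 3.58.1 gave alternatives. Depth was 16046094 to 51487382 counts, and the precision is given by the standard errors.

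High salt liver columns carry the diet but no replicate number of the labels. The 31 genes and the further lists were chosen with earlier results of these data known. All 31 were considered by role, with values for each library given where the diets did not overlap, the unadjusted p was under 0.05, the difference was the largest or smallest of its role, or the tissues differed at least 4-fold; of the further lists, called genes are named. The fits were tested on simulated data in which 200 genes differed by 2 log2 units: 162 of them were called in the liver design (14893 genes, 5 false calls), 157 in the kidney design (15430 genes, 15 false), 98 for the interaction (16354 genes, 2 false) and 152 between tissues (16447 genes, 9 false). The simulated counts were drawn independently for each library, without the length trend or the likeness of HS5 and HS6 seen in the real data. Apart from the altered genes, liver and kidney had the same simulated levels, whereas 65.1% of 16633 genes passed between the real tissues. How many false calls the interaction and tissue fits make with such differences is therefore not known. Smaller differences were not simulated, so how many of them the fits would call is not known. Transcript lengths and near-identical copies came from GENCODE M21, and promoter windows from RefSeq.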

Additional observations from a re-analysis of the deposited data

Results flagged for a closer look

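In 5 of 62 gene and group combinations in liver, 1 of the 4 libraries lay apart from the other 3 beyond Dixon's 95% critical value, where chance gives about 3.1. Normal diet library 4 was high for Sod2 (194.1 CPM, others 128 to 132 CPM) and for Hmox1 (63.4 CPM, others 6.35 to 13.3 CPM), and it also held the most neutrophil marker RNA (61.4 CPM). HS7 was high for Prdx1 (1193 CPM, others 770.1 to 805 CPM) and for Gclc (219.6 CPM, others 142 to 147 CPM). HS8 was low for Gsr (35.6 CPM, others 42.1 to 43.4 CPM). No cause of these values was tested.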

How the results depend on the processing

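In liver, 152 genes were called. That count was 1122 with DESeq2, 12 with HS5 and HS6 summed, 15 without HS7 and HS8, 52 without normal diet libraries 1 and 2, and 12 to 765 when each library was left out (765 without normal diet library 3, 409 without 4, 41 without 2, 39 without 1, 32 without HS8, 18 without HS5 and 12 without HS6). Of the 31 genes, 0 were called; DESeq2 called 2 and the fits without 1 library 0 to 1 (Gpx1, without normal diet library 3). In kidney, 0 genes were called and 318 had an unadjusted p under 0.05; DESeq2 called 11. For the interaction 0 genes were called and 1681 had an unadjusted p under 0.05; the count was 145 with DESeq2, 2 with at least 10 counts in every library, 1 without normal diet liver libraries 1 and 2, and 0 to 7 when each library was left out. Between tissues 10823 genes were called, and leaving out each library gave 9758 to 10790 genes and 19 to 22 of the 31. No value of the 31 genes past a threshold changed direction under any alternative run. The length offset, the summed copies and the fit without HS7 and HS8 were chosen after seeing the data.

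Replicate numbers of the labels share no stated animal or day. In kidney the correlations of same-numbered libraries across diets were 0.49, 0.47 and -0.13, and 2 of 3 correlated best with their own number; across tissues they were -0.22, 0.25 and -0.29. With a replicate block, 0 genes and 0 of the 31 were called between kidney diets, Nqo1 had an unadjusted p under 0.05 (0.72 on the log2 scale, edgeR adjusted p = 1.00), and 7738 genes and 16 of the 31 between tissues. No paired analysis was possible for liver because the high salt columns carry no number of the labels.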
